A study of Sus scrofa with 6 samples.

Results

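The outer kinetochore genes SKA1, SKA2, SKA3, NDC80, NUF2, SPC24, SPC25, KNL1, DSN1 and MIS12 were examined in porcine 2-cell embryos after SIN3A knockdown. Of these 10 genes, 8 were found by name among the 17678 genes of the deposited table. SKA1 has no name there and was recognised by its Ensembl identifier, ENSSSCG00000004518, through a reference table of gene names. The abundance of KNL1 was not analysed here, and KNL1 enters only the search of promoter sequences. SKA2 was chosen by its higher values in KD than in NC embryos in these same libraries, so its difference between groups is given as a description, without a test. The other genes entered as parts of the same structure and were tested.

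Crossbred pig oocytes were matured in vitro, injected at metaphase II with negative control siRNA (NC) or with siRNAs against SIN3A (KD), and activated parthenogenetically. Each group had 3 replicates of 20 embryos, pooled at the 2-cell stage 32 h after activation. All embryos of both groups were parthenogenetic and therefore had no paternal genome. The values are transcript abundances that the authors normalized between libraries, and they are not corrected for transcript length.

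The kinetochore is the protein assembly that joins a chromosome to spindle microtubules during mitosis. Its outer layer is the KMN network, made of KNL1, the MIS12 complex and the rod-shaped NDC80 complex, which grips the microtubule. The SKA complex of SKA1, SKA2 and SKA3 is loaded onto NDC80 and helps it hold microtubules that grow and shrink. Before activation of the embryonic genome, cleaving embryos rely largely on transcripts and proteins stored in the oocyte.

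The deposited values correspond to an estimated 7820000 to 15800000 reads per library. SIN3A, the target of the siRNAs, was 34576 ± 2534 in NC and 2841 ± 1591 in KD embryos (SD, n = 3). Its values were 3271, 1079 and 4173 in KD replicates 1 to 3, all below the lowest NC value of 32404. The labelled cell type was checked with 12 oocyte markers, of which 10 were found. Their summed value was 66977 to 74857 in NC and 66121 to 81635 in KD embryos. Most of this sum came from KPNA7 and BMP15, and FIGLA averaged below 10. Of 14 cumulus and granulosa cell markers, 12 were found, and 8 of these averaged below 10. The summed value of the 12 ranged from 1030 to 1243 in NC and from 1007 to 1149 in KD embryos, and most of it came from VCAN and GREM1. PTGS2 and PTX3, which mark expanded cumulus, were at 0 in all KD libraries and no higher than 3.13 in NC libraries.

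SKA2 (ENSSSCG00000034217), the small subunit that pairs with SKA1 and SKA3 in the core of the SKA complex, occupies chr12:35396565-35433294 of Sscrofa11.1 and is transcribed from the minus strand. The RefSeq mRNA has 4 exons and 3337 bases, of which 366 are coding. PRR11, a proline-rich protein gene linked to cell cycle progression, starts 400 bases away and runs in the opposite direction. The 2 genes are separated by 399 bases, so that a single intergenic stretch holds the upstream region of both. The 300 bases next to the start of SKA2 are printed because they are shared with a gene whose values can be set beside those of SKA2. They lie at chr12:35433295-35433594 of Sscrofa11.1, and are written on the minus strand, in the direction of SKA2, with CCAAT and its reverse complement ATTGG in capitals.

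SKA2: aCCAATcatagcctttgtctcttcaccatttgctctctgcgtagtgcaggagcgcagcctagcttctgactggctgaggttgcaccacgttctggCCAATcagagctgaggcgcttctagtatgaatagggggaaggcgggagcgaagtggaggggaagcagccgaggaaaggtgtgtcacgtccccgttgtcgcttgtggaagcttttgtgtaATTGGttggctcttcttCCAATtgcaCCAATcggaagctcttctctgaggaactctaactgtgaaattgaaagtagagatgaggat

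CCAAT is the motif bound by the factor NF-Y and is common in front of genes of mitosis. In the 250 bases before the SKA2 start it occurred 4 times on either strand, at 205, 86, 69 and 60 bases, and the first capitals of the printed sequence lie outside that window. Of 19525 promoters of the same length in RefSeq, 31.9% held at least 1 CCAAT and 0.778% held at least 4. Among the 10 outer kinetochore genes, SKA1, SKA2, SPC24, SPC25 and MIS12 held it, with 1 in SKA1 and SPC24, 3 in SPC25 and 4 in MIS12. TTTGAA, the cell cycle genes homology region, was found in NUF2 and SPC25 and in 12.5% of all promoters. GGCGGGAA, a site of the E2F type, was found in MIS12 and in 2.88% of all promoters. Both strands were searched for each motif, and the 3 motifs did not share bases in these genes. The 100 bases before SPC24 (chr2:69890315-69890414) and SPC25 (chr15:75371276-75371375), both written on the minus strand, are shown for comparison because these partners in one dimer also carried CCAAT close to the start.

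SPC24: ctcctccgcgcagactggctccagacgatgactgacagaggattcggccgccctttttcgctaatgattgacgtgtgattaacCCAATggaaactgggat
SPC25: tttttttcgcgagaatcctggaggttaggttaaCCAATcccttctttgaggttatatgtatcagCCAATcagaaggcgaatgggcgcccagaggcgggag

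The SKA2 values were 66.9, 37.8 and 35.5 in NC libraries, listed by replicate number, and 102, 58.2 and 123 in KD libraries. Values of other genes follow the same order. KD replicates 1 and 3 lay above every NC value, but KD replicate 2 lay below NC replicate 1, so the groups overlapped. The mean was 46.8 ± 17.5 in NC and 94.4 ± 33.1 in KD embryos (SD, n = 3), a ratio of 2.02. In pooled embryos, a difference in every cell and a larger difference in some of the cells cannot be told apart. The log2 fold change on the log2(value + 1) scale was 0.99 with a standard error (SE) of 0.31. Of the 11986 genes with a mean of at least 10, 80 had a log2 fold change at least as high. The values rest on few reads, an estimated 26 to 112 per library. Among the KD libraries, SKA2 was lowest in replicate 2, where SIN3A was also lowest, and highest in replicate 3, where SIN3A was also highest. This is an order of only 3 libraries, and a relation between SKA2 and SIN3A was not tested. The 12 cumulus and granulosa markers did not move together in KD replicate 3. FOXL2 was 13.1 there, against at most 2.90 in the other libraries, and CYP11A1 was 14.2, against at most 5.22. STAR was 23.4 in that library, against at most 20.6 elsewhere, and AMHR2 was 3.30, against 0 elsewhere. INHBA was 7.69 there, against 13.1 to 17.7 in NC libraries, and VCAN was 755, below its lowest NC value of 761. PTGS2, PTX3 and TNFAIP6 were at 0 there. Such low values also occurred in other KD libraries. INHBA was 6.81 and TNFAIP6 0 in KD replicate 1, VCAN was 735 in KD replicate 2, and PTGS2 and PTX3 were at 0 in every KD library. TNFAIP6 was also at 0 in NC replicates 1 and 2. These markers were picked after their values were seen. The part of these transcripts in the SKA2 value was not tested, and without KD replicate 3 the log2 fold change of SKA2 was 0.77.

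**Figure D1:**
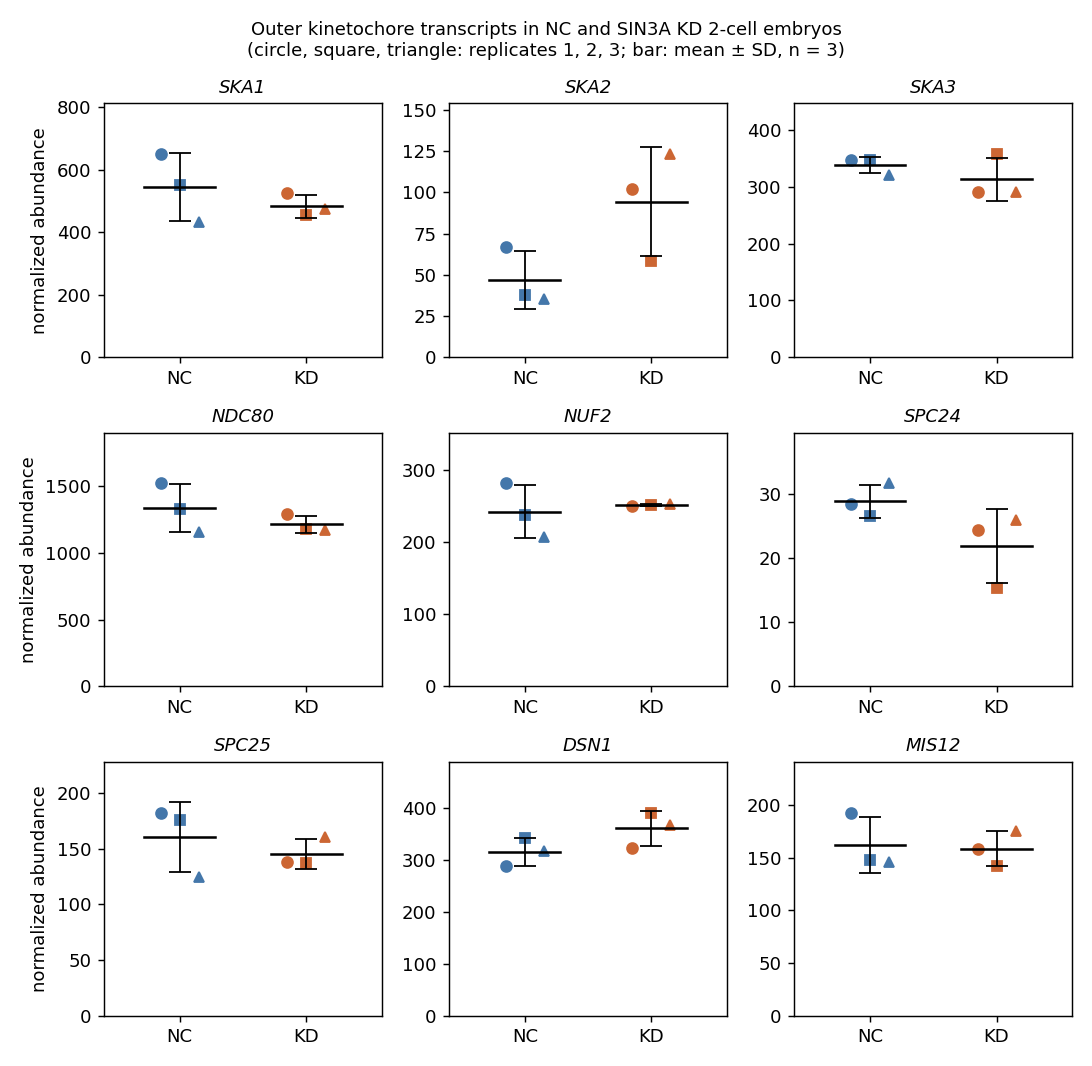
Normalized abundance (vertical axes, from 0, a separate scale for each gene) of 9 outer kinetochore genes in 3 NC (blue) and 3 KD (orange) libraries, with the mean and SD. SKA2 is about 2.02 times as high in KD on average with overlapping groups. SPC24 is the only gene plotted whose groups do not overlap, with all KD values below the lowest NC value of 26.6. Groups did not overlap in 9.79% of all tested genes.

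SKA2 also varied widely within each group. The SD of its log2 values was 0.49 in NC and 0.56 in KD embryos. For comparison, the 2907 tested genes with a mean within 2-fold of that of SKA2 had a median SD of 0.26 in both groups. The SD of SKA2 was above that of 87.8% of these genes in NC and 91.1% in KD embryos. SKA2 was thus more variable between replicates than most of these genes. They were matched by the mean over all 6 libraries, which for SKA2 lies between its means of 46.8 in NC and 94.4 in KD. Each SD rests on 3 libraries.

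The partners of SKA2 had slightly lower means in KD embryos, within the spread between replicates. SKA1, the subunit that binds microtubules, was measured at 650, 551 and 432 (NC) and 524, 454 and 473 (KD). All KD values of SKA1 lay within the NC range. Its log2 fold change was -0.15 (SE 0.14, 95% interval -0.45 to 0.15, limma adjusted p = 0.997). SKA3, the subunit through which cyclin-dependent kinase controls binding to NDC80, was measured at 347, 348 and 322 (NC) and 291, 358 and 292 (KD). KD replicate 2 was the highest of all 6 libraries for SKA3 and the other KD libraries were the lowest. Its log2 fold change was -0.12 (SE 0.13, 95% interval -0.40 to 0.17, limma adjusted p = 0.997). The difference between SKA2 and its partners was not tested, because SKA2 was chosen for its higher KD values.

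The balance within the SKA complex was followed by subtracting, in each library, the mean log2 value of the 3 subunits. Relative to that mean, SKA2 was at -1.87, -2.33 and -2.24 log2 units in NC libraries. The KD libraries were closer to the mean, at -1.29, -1.85 and -1.06, replicate 2 by a narrow margin. That mean includes SKA2 itself, and SKA2 was chosen for its higher KD values. The shift is therefore a description, and a change of balance was not tested. Without SKA2, the distance of SKA1 above the mean of SKA1 and SKA3 averaged 0.33 in NC and 0.31 in KD embryos. The proportion of SKA1 to SKA3 differed by less than its range over the libraries of either group.

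NDC80, also called HEC1, and NUF2 form the dimer that contacts the microtubule. The NDC80 values were 1519, 1329 and 1159 in NC and 1288, 1181 and 1172 in KD libraries. All KD values lay within the NC range. The log2 fold change of NDC80 was -0.13 (SE 0.11, 95% interval -0.36 to 0.10). NUF2 was 281, 237 and 207 in NC and 249, 251 and 252 in KD libraries, so that its KD libraries were almost identical and again lay within the NC range. The log2 fold change of NUF2 was 0.06 (SE 0.15, 95% interval -0.25 to 0.38), and its sign turned without NC replicate 3, where it was -0.04. Both genes had an adjusted p of 0.997 from limma.

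SPC24 and SPC25 form the other end of the rod, which is anchored in the inner part of the kinetochore. SPC24 was 28.4, 26.6 and 31.7 in NC and 24.4, 15.3 and 25.9 in KD libraries. It was the only one of the 8 tested members whose groups did not overlap, with every KD value below every NC value, which held for 9.79% of all tested genes in one direction or the other. Its log2 fold change was -0.41 (SE 0.35, 95% interval -1.16 to 0.33, limma adjusted p = 0.997). The exact two-sided permutation test gave p = 0.1, the smallest that 3 against 3 libraries allow. SPC24 rested on an estimated 18 to 37 reads per library, the lowest numbers among the members. SPC25 was 183, 176 and 125 in NC and 138, 138 and 161 in KD libraries, with all KD values within the NC range. Its log2 fold change was -0.13 (SE 0.18, 95% interval -0.52 to 0.26, limma adjusted p = 0.997). Averaged over the 4 subunits of the NDC80 complex, the log2 value was 7.63 in NC and 7.47 in KD embryos. Each subunit counted equally there, SPC24 with its few reads included. For NDC80 and NUF2 alone the average was 9.14 in NC and 9.11 in KD embryos. For SPC24 and SPC25 it was 6.11 and 5.84.

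DSN1 and MIS12 belong to the MIS12 complex, the bridge between the NDC80 complex and the inner kinetochore. DSN1 was 288, 342 and 318 in NC and 324, 391 and 367 in KD libraries. KD replicates 2 and 3 lay above all NC values and KD replicate 1 did not. The log2 fold change of DSN1 was 0.19 (SE 0.13, 95% interval -0.09 to 0.47). MIS12 was 193, 148 and 146 in NC and 159, 143 and 175 in KD libraries, with the groups interleaved. Its log2 fold change was -0.02 (SE 0.17, 95% interval -0.39 to 0.34), and it was positive without NC replicate 1 (0.11) and without KD replicate 2 (0.05). Both genes had an adjusted p of 0.997 from limma.

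Of the 8 members tested, 0 passed an adjusted p of 0.05 by limma and 0 had an unadjusted p below 0.05. Over all 11986 genes, 0.159% passed the adjusted p and 4.61% had an unadjusted p below 0.05. The median log2 fold change of the 8 members was -0.12, with 2 positive and 6 negative values, against 0.003 for all genes tested. The median of the members rested on single libraries, since it was -0.02 without NC replicate 1 and -0.19 without NC replicate 3, with 5 and 7 of the 8 values negative. The upper ends of the 95% confidence intervals of the 8 members lay between 0.10 and 0.47 on the log2 scale, and the lower ends between -1.16 and -0.09. Changes of 2-fold in either direction were thus outside these intervals for each of the 8 except SPC24.

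The rest of the kinetochore was described by 6 lists holding 60 genes, of which 58 were found and 57 were tested. None passed an adjusted p of 0.05 by limma, while 2 had an unadjusted p below 0.05. The groups did not overlap in 6 of the 57, and in 9.79% of all tested genes. None of the 57 had a log2 fold change as high as that of SKA2, which was chosen for its higher KD values. In the list of MIS12 complex and KNL1 partners, 2 of 3 genes were tested. ZWINT, which helps recruit checkpoint proteins to KNL1, was 284, 228 and 229 in NC and 215, 208 and 205 in KD libraries, a log2 fold change of -0.23 (SE 0.15, limma adjusted p = 0.997). NSL1, a MIS12 complex subunit, differed by 0.06 on the log2 scale (limma adjusted p = 0.997). PMF1, the fourth subunit of that complex, was too low for the test, with values of 1.07 to 2.18 in 5 libraries and 30.4 in KD replicate 3.

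In the list of the inner kinetochore and of CENPA deposition, which covers the constitutive centromere proteins and the factors that place the centromeric histone, 0 of 19 tested genes passed the adjusted p by limma and 1 had an unadjusted p below 0.05. Of the 19, 17 had a negative log2 fold change, against 5922 of all 11986 genes, and the median was -0.14. The median was between -0.16 and -0.08 in the 14 alternatives run, the latter without NC replicate 1, with 15 to 17 negative values. The alternatives and the 19 genes all rest on the same 6 libraries. These counts are therefore a description, and the list was not tested as a set. The lowest values were those of CENPU, which recruits Polo-like kinase to centromeres, at -0.29 and of CENPM at -0.28. CENPU was 555, 587 and 573 in NC and 448, 501 and 456 in KD libraries, with no overlap (limma adjusted p = 0.997). The highest were CENPQ at 0.14 and OIP5 at 0.09, both with a limma adjusted p of 0.997. CENPQ stood at 937 in KD replicate 3 and between 487 and 651 in the other 5 libraries. KD replicate 3 was the highest library for SKA2, PMF1 and CENPQ, as for ZW10 and CENPF, and the lowest for ZWINT, SPDL1 and BUB1. These genes were picked after their values were seen, and no link between them was tested.

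The remaining lists had medians close to 0, and 3 of these 4 medians turned sign when a single library was left out. The corona and RZZ list, the outermost layer that catches microtubules from the side, had a median of -0.03 over 8 genes, with ZW10 at 0.22 and CENPF at 0.16 highest and SPDL1 at -0.13 and NDEL1 at -0.11 lowest. Its median was 0.02 without KD replicate 3. The list of astrin, SKAP and microtubule plus-end proteins had a median of 0.04 over 8 genes, with CLASP1 at 0.29 and CDT1 at 0.23 highest and SPAG5 at -0.42 and MAPRE1 at -0.08 lowest. Its median ranged from -0.0065 without NC replicate 3 to 0.15 without KD replicate 3, where 2 of the 8 values were negative. The spindle checkpoint list had a median of -0.03 over 8 genes, with MAD1L1 at 0.12 and BUB3 at 0.04 highest and both MAD2L1BP and BUB1 at -0.17 lowest. Its median ranged from -0.09 without KD replicate 1 to -0.01 without KD replicate 2. The list of passenger proteins, kinases and phosphatases had a median of 0.04 over 12 genes, with PPP2R5A at 0.40 and AURKB at 0.16 highest and PPP1CB at -0.09 and PPP1CC at -0.08 lowest. Its median ranged from -0.02 without KD replicate 1 to 0.08 without KD replicate 3. PPP2R5A, a regulatory subunit of the phosphatase PP2A, was 277, 321 and 269 in NC and 428, 329 and 396 in KD libraries, with no overlap (limma adjusted p = 0.852). None of these genes passed the adjusted p.

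**Figure D2:**
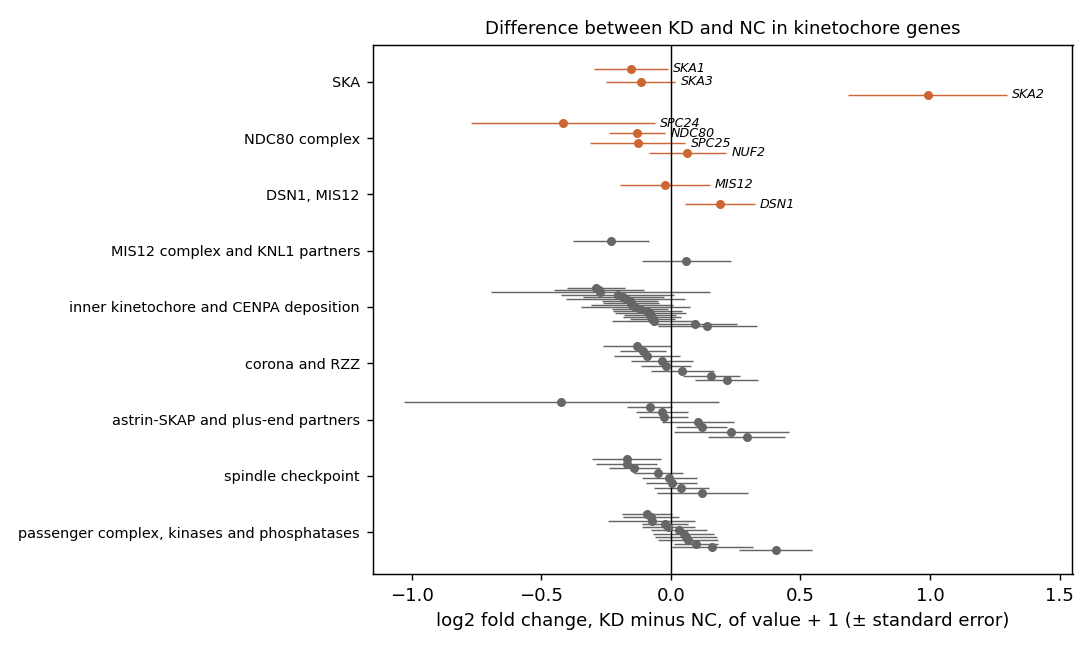
Log2 fold change, KD minus NC, of value + 1 (horizontal axis, bars are standard errors) for the 9 outer kinetochore genes analysed (orange, named) and for the tested genes of the 6 other lists (grey). SKA2 at 0.99 lies to the right of all other genes, the next of which is PPP2R5A at 0.40, and its difference is shown as a description since it was chosen for it.

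Levels of different genes were compared per kilobase of the longest RefSeq mRNA, as the mean and SD of the 3 NC libraries. NDC80 was highest with 571 ± 77.0 per kilobase, followed by SKA1 with 430 ± 86.1, and the NC values of these 2 genes overlapped. NUF2 followed with 120 ± 18.5, apart from both neighbours in the order. MIS12 with 74.7 ± 12.3, SKA3 with 67.4 ± 2.91 and DSN1 with 60.6 ± 5.23 came next and overlapped from one to the next. SPC25 with 40.1 ± 7.90 and SPC24 with 37.4 ± 3.31 overlapped each other and lay below DSN1. SKA2 was lowest with 14.0 ± 5.24, below every NC value of SPC24. Of 10219 tested genes with a length, 23.5% lay below SKA2 in NC embryos and 89.3% lay below NDC80.

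Transcripts of proteins that join in one complex thus differed widely in level. NDC80 was 4.74 times as high per kilobase as its partner NUF2 and 15.3 times as high as SPC24. SKA1 was 30.7 times as high as SKA2. In KD embryos SKA2 had 28.3 ± 9.92 per kilobase and SPC24 28.4 ± 7.41 (SD, n = 3), so that the bottom of the order was shared. As a share of SKA3 per kilobase, SKA2 was 29.1%, 16.4% and 16.6% in NC and 52.7%, 24.5% and 63.6% in KD replicates 1 to 3, with KD replicate 2 below NC replicate 1. The order depends on the gene models. With the shortest RefSeq mRNA, DSN1 was at 207 per kilobase and SPC25 at 119. SKA2 has only 1 RefSeq mRNA, so this choice left its value unchanged and could only raise other genes. That SKA2 remained lowest was thus fixed beforehand. SKA2 would reach the NC level of SPC24 if its mRNA in these embryos had 1249 bases.

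**Figure D3:**
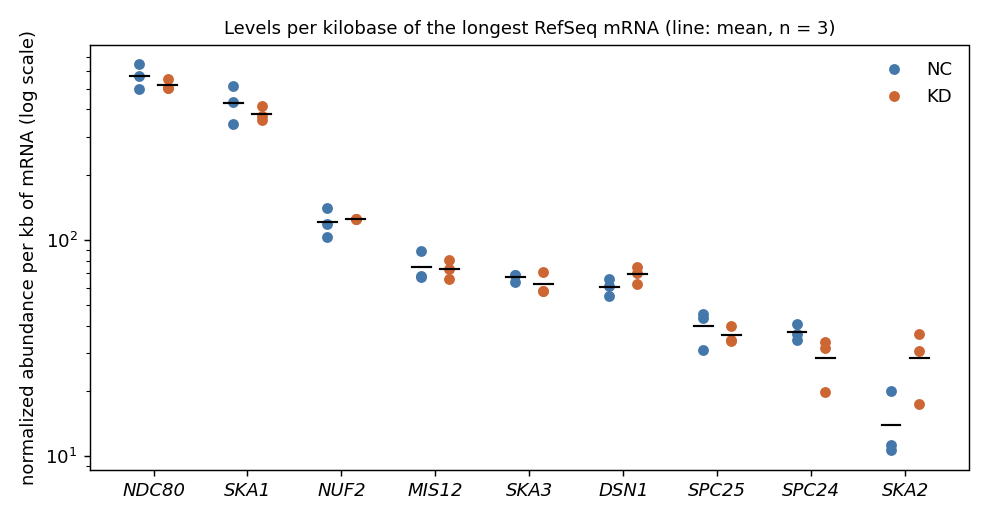
Normalized abundance per kilobase of the longest RefSeq mRNA (vertical log axis) in 3 NC (blue) and 3 KD (orange) libraries, ordered by the NC mean, with lines at the means. NDC80 and SKA1 are highest, with NC means of 571 and 430, and SKA2 is lowest in NC but level with SPC24 in KD.

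Of the 9 genes analysed, 4 share their start region with a gene on the other strand that starts within 1000 bases, as do 12.9% of 19529 protein-coding genes in RefSeq. Besides SKA2 with PRR11, these are NDC80 with METTL4, a methyltransferase gene, SKA3 with MRPL57, a mitochondrial ribosomal protein gene, and MIS12 with DERL2, a gene of protein degradation at the endoplasmic reticulum. The gap between NDC80 and METTL4 is shown because it is short enough to hold the entire sequence between 2 starts. It has 27 bases at chr6:104055786-104055812, on the minus strand in the direction of NDC80.

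NDC80: cgggatttgcgcacgcgcgcgcacgtc

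PRR11 was 80.0, 52.6 and 37.7 in NC and 59.4, 60.4 and 54.9 in KD libraries. All its KD values lay within the NC range, and its log2 fold change was 0.10 (SE 0.28, 95% interval -0.49 to 0.69, limma adjusted p = 0.997). In NC embryos SKA2 lay on average 0.27 log2 units below PRR11, and in KD embryos it lay 0.62 units above it, without correction for length. The other neighbour of SKA2, TRIM37, a ubiquitin ligase gene 3100 bases beyond its end, differed by 0.04 on the log2 scale (SE 0.09, limma adjusted p = 0.997). Neither neighbour of SKA2 passed the test.

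The log2 fold changes of METTL4 and DERL2 were -0.06 and -0.10, both with a limma adjusted p of 0.997. MRPL57 was 27.5, 16.3 and 30.4 in NC and 47.0, 19.9 and 46.1 in KD libraries, with KD replicates 1 and 3 high and the groups overlapping. Its log2 fold change was 0.53 (SE 0.39, limma adjusted p = 0.997). The annotated genes overlap by 287 bases for SKA3 with MRPL57, by 200 bases for MIS12 with DERL2 and by 7731 bases for SPC25 with NOSTRIN, and no use of strand is stated, so reads in the overlaps cannot be told apart. NOSTRIN itself was at 0 in 5 libraries and at 1.43 in KD replicate 2.

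**Figure D4:**
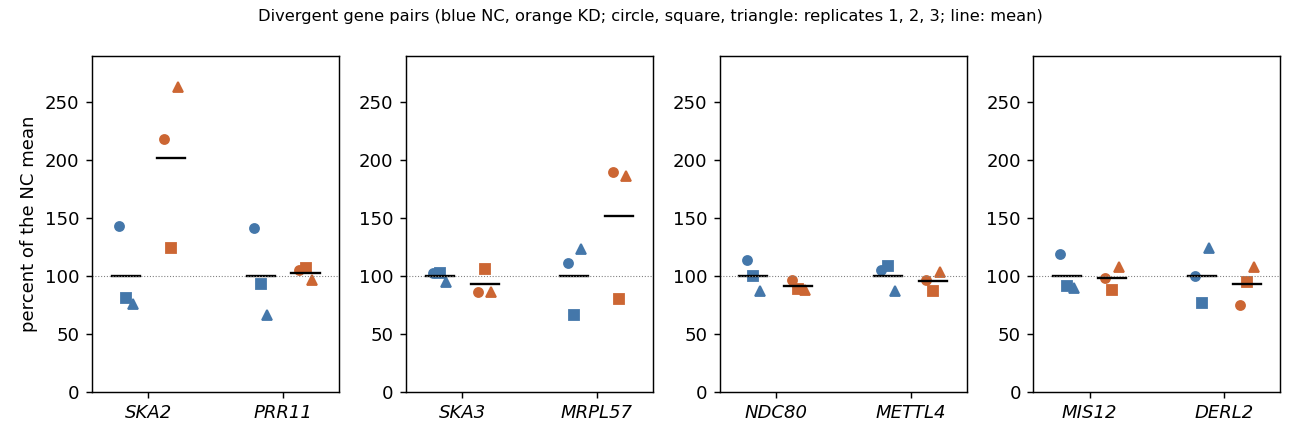
Values in each library of the 4 pairs that start within 1000 bases of each other on opposite strands. They are given as a percentage of the gene's own NC mean (vertical axis, from 0), for NC (blue) and KD (orange), with lines at the means. SKA3 with MRPL57 and MIS12 with DERL2 overlap at their starts. SKA2 averages 202% of its NC mean in KD embryos and PRR11 103%, while in the pair SKA3 and MRPL57 it is the neighbour that is higher on average, at 152%.

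The genes with the pattern most like SKA2 were sought among 10866 named tested genes, as the Pearson correlation of log2(value + 1) over the same 6 libraries. The highest were PKD2 (r = 0.99), GRASP (0.98), IL6ST (0.98), RXRG (0.98) and LYRM2 (0.97). All 5 had low values in NC replicates 2 and 3 and their highest value in KD replicate 1 or 3. After subtraction of the group means, the highest were FERMT2, DUSP12, IDE, RIPPLY2 and AHNAK, with r from 0.992 to 0.998. By that measure MIS12 had an r of 0.95 with SKA2, at rank 123 of the 10866 genes, and SKA1 one of 0.67, at rank 1552. NDC80, NUF2, SPC24 and SPC25 lay between 0.61 and 0.66, while SKA3 was at -0.55 and DSN1 at -0.70. These correlations describe the same 6 libraries, which share their depth and normalization between genes, and carry no test.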

How the data were processed

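Per the labels, the authors quantified reads on Sscrofa11.1 by Salmon 0.14.1 and used DESeq2. The deposited table gives a normalized signal for each gene, which is neither a whole count nor scaled to length. The annotation release is not given in the sources used here. Depth was estimated from the spacing of low values. As 47.9% to 69.6% of low values lay within 0.05 of a whole multiple, counts could not be restored exactly, and count models were left out. Reads per gene are given only as estimates, the value divided by that of 1 read.

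Genes averaging 10 or more were fitted on log2(value + 1) in limma 3.58.1 (R 4.3.3), using a variance trend and Benjamini-Hochberg adjustment over all genes. This scale understates changes of low genes. Single genes were also compared by exact permutation with scipy 1.17.1. The fit was tested on simulated data. Tables and sequences were handled with Python 3.11.15 and pysam 0.24.0.

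Of 3575 genes without a name, 837 were named by identifier. Positions, mRNA lengths and sequences are from RefSeq Sscrofa11.1. The members and lists were chosen with earlier results of these data known. Named were all members and, in each list, the genes past the test or else the 2 highest and 2 lowest. Also named were the neighbours of SKA2, partners starting nearby on the other strand, and the 5 genes most like SKA2. NOSTRIN and single oocyte, cumulus and granulosa markers were named after their values were seen. The study describes its replicates as independent, without saying whether each came from its own batch of oocytes. The alternatives were other pseudocounts (0.1 and 10), filters (none, or a mean of at least 100) and scalings, no variance trend, a replicate block, leaving out each library and other mRNA lengths. The spike-in mRNAs were not used here, so total messenger RNA per embryo was not assessed.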

Additional observations from a re-analysis of the deposited data

How the results depend on the processing

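Leaving out each library in turn gave SKA2 log2 fold changes between 0.77 and 1.302. The sign was positive in each of the 13 alternatives in which SKA2 was above the filter. SKA2 was chosen for its higher KD values in these same libraries, so this sign is a description and no test of the difference. Dropping the filter, dropping the variance trend or adding a replicate block left the value at 0.99. Among the other members and the 57 list genes, 0 passed an adjusted p of 0.05 in each alternative run. With one library left out, NUF2 ranged from -0.041 (without NC replicate 3) to 0.18. MIS12 ranged from -0.097 to 0.11 (without NC replicate 1) and was 0.052 without KD replicate 2. PRR11 ranged from -0.15 (without NC replicate 3) to 0.38. The other members kept their sign but not their size. Without NC replicate 1 and without NC replicate 3, SKA1 was -0.015 and -0.31, NDC80 -0.033 and -0.23, and SPC25 -0.027 and -0.30. SPC25 was -0.055 without NC replicate 2 and -0.20 without KD replicate 3. SKA3 was -0.067, -0.21 and -0.068 without KD replicates 1, 2 and 3. SPC24 was -0.19 without KD replicate 2, and DSN1 0.13 without NC replicate 1. The cause was not tested. Over all genes, 19 passed, 0 without the variance trend (with 622 at an unadjusted p below 0.05), and 11 to 19 when one library was left out. A replicate block by number gave 26 genes over all genes and 0 of the tested members. Libraries of the same number had correlations of 0.109, 0.111 and 0.0872 after subtraction of the group means, and each correlated best with its own number, but no label states a shared batch. With the shortest RefSeq mRNA, the levels per kilobase of NUF2, SPC25 and DSN1 were 145, 119 and 207. Low depth limits SKA2 and SPC24 most.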
